A study of Mus musculus with 17 samples.

Results

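Mitochondrial ribosomal protein genes were taken as the entries of the gene count table whose mouse symbol is Mrpl or Mrps followed by a number and, in some, by a or b. The rule found 77 of the 23719 entries, 49 named for the large subunit (Mrpl) and 28 for the small subunit (Mrps), on 17 chromosomes. Their proteins are encoded in the nucleus, made in the cytosol and imported into mitochondria, where they assemble with ribosomal RNA of the mitochondrial genome into the mitoribosome. The mitoribosome translates the few mRNAs of mitochondrial DNA, all of which encode subunits of oxidative phosphorylation (OXPHOS). Colonic epithelium and smooth muscle both draw on this pathway for their energy. The colons came from 17 male C57BL/6 mice aged 32 to 34 weeks. The 9 control mice drank water, and the 8 GWI mice drank water with pyridostigmine bromide (2 mg/kg), which blocks acetylcholinesterase, for 7 days. Exposure was followed by 21 days of recovery, and colon tissue was collected on day 30. Poly(A)-selected RNA was sequenced, and the values analysed were the read counts per gene. The model is limited to males of an inbred strain and to a single agent. The study asked what persists in the colon after the exposure has ended, and the comparison here is of GWI colons with control colons.

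Libraries held 16293537 to 20741212 counts in total, and each member was counted in each mouse, with counts from 14 for Mrpl53 to 4015 for Mrpl12. Control libraries 1 and 9 stood apart from the rest. In Control replicate 9 the 10 most abundant genes took 23.1% of the counts, against 9.72% to 17.3% in the other 16 libraries. This mouse had the highest level of its group for 41 of the 77 members and the lowest for 10. Control replicate 1 had the lowest level of its group for 61 members and the highest for 1. Sample names share a first part within Control replicates 3 to 5, Control replicates 7 and 8, GWI replicates 1 and 2, GWI replicates 3 to 5, and GWI replicates 7 and 8. What that part stands for is not given, and it was not modelled. Count profiles of Control replicates 3 to 5 differed by a chi-square per gene of 9.41 to 20.3 and those of Control replicates 7 and 8 by 25.3, against 20.7 to 390 for other pairs of controls. In GWI mice the pairs that share a first part had 14.6 to 92.9 and the other pairs 11.1 to 107.

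Of the 77 members, 21 were lower in GWI colons and 0 were higher (adjusted p-value under 0.05, edgeR's quasi-likelihood test over all 14146 genes tested). The share of members that were lower was 27.3%, and over all genes tested 13.5% were lower and 13.4% were higher. The log2 fold change of GWI against control was negative for 65 members, or 84.4%, as it was for 55.2% of all genes tested. Members had a median log2 fold change (log2 of the GWI level over the control level) of -0.21, and all genes tested -0.06. In what follows SE is its standard error, and adjusted p is from edgeR's test with Benjamini-Hochberg adjustment unless another tool is named. At an unadjusted p-value under 0.05, 34 members were lower and 1 was higher, as were 3123 and 2728 of all 14146 genes tested. The DESeq2 Wald test called 25 members lower and 1 higher, and 17.3% of all genes lower. By limma-voom 16 members were lower and 0 higher, and 11.7% of all genes were lower. As many members, 65, were negative when libraries were scaled by DESeq2's size factors or by library size alone. Under each 22 members were lower, where 13.9% and 13.1% of all genes were. The count was 37 without Control replicate 1, where 16.3% of all genes were lower, and 13 without GWI replicate 7, where 9.21% were. With both Control replicate 1 and Control replicate 9 left out, a check added after the data were seen, it was 43, which included the 21 called with all mice, and 19.6% of all genes were lower. In whole-tissue RNA, fewer cells of a type and less RNA per cell cannot be told apart.

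**Figure D1:**
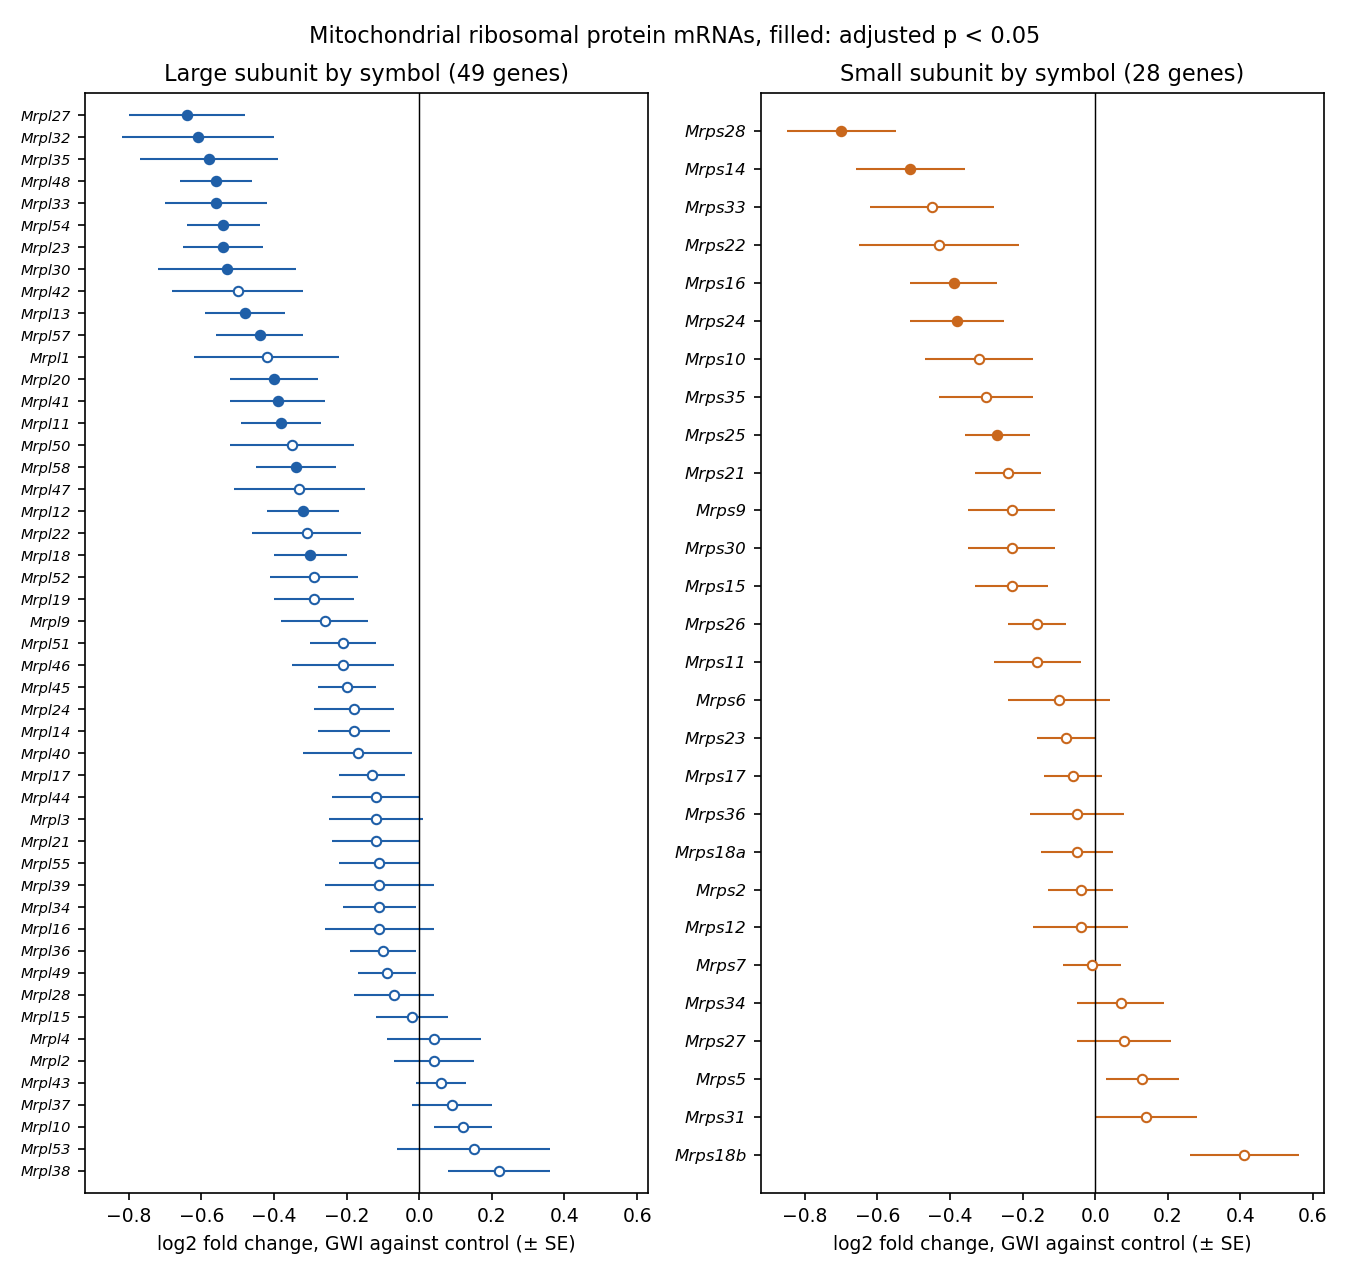
Log2 fold change of GWI against control colons for each of the 77 members (points, with standard errors as bars), large subunit on the left and small subunit on the right. Filled points mark the 16 large subunit and 5 small subunit genes with an adjusted p-value under 0.05, all of which lie below 0.

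In the large subunit 16 of 49 genes were lower, or 32.7%, and in the small subunit 5 of 28, or 17.9%, against 13.5% of all genes tested. The median log2 fold change was -0.21 in the large subunit and -0.16 in the small subunit, and 42 and 23 genes were negative. Whether the subunits differ from each other was not tested. Without Control replicate 1, where 16.3% of all genes were lower, 24 of 49 large subunit and 13 of 28 small subunit genes were lower. The medians were -0.16 and -0.16 without Control replicate 9, and -0.10 and -0.12 with GC content and length corrected by offsets. Without GWI replicate 1, 2, 3, 4 or 7 the small subunit count was 3, and without GWI replicate 7 the large subunit count was 10. In these fits 9.21% to 11.2% of all genes were lower. Symbols do not always give the place of a protein in the mitoribosome: Mrps30 and Mrps18a sit in the large subunit, and Mrps36 is now known as a part of the 2-oxoglutarate dehydrogenase complex. Counted by position, 16 of 51 large subunit genes and 5 of 25 small subunit genes were lower.

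The summed level of the large subunit genes was 1574 CPM (counts scaled to libraries of equal size after edgeR's TMM normalization) in the lowest control mouse, 2275 at the median and 2974 in the highest, against 1841, 1909 and 1964 CPM in GWI mice. The small subunit sum had a lowest, median and highest value of 697.6, 993.6 and 1151 CPM in controls and 808.9, 863.5 and 924.8 CPM in GWI mice. For each sum 7 of the 9 control mice lay above every GWI mouse, while Control replicate 1 lay below them and Control replicate 6 among them. The ratio of the large to the small subunit sum was 2.33 ± 0.101 (SD, n = 9) in controls and 2.20 ± 0.0515 (SD, n = 8) in GWI colons. This ratio ran from 2.25 to 2.58 in controls and from 2.12 to 2.28 in GWI mice, so the groups overlapped, and 6 control mice lay above every GWI mouse. Without Control replicate 9 the control ratio was 2.30 ± 0.039 (SD, n = 8) with a highest value of 2.36, and 5 control mice lay above every GWI mouse. The members together held 0.304% to 0.364% of the counts in 8 control mice, 0.214% in Control replicate 1, and 0.258% to 0.285% in GWI mice.

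The spread among control mice rested in part on the control libraries that stood apart. The SD was smaller in GWI mice for 75 of the 77 members, or 97.4%, and for 81.4% of all genes tested. The median coefficient of variation of a member was 20.1% in controls and 8.99% in GWI mice, and over all genes tested it was 26.6% and 15.6%. Without Control replicates 1 and 9, a check added after the data were seen, the SD was smaller in GWI mice for 60 members, or 77.9%, and for 58.9% of all genes, and the median coefficient of variation in controls was 11.2% for members and 17.7% for all genes.

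**Figure D2:**
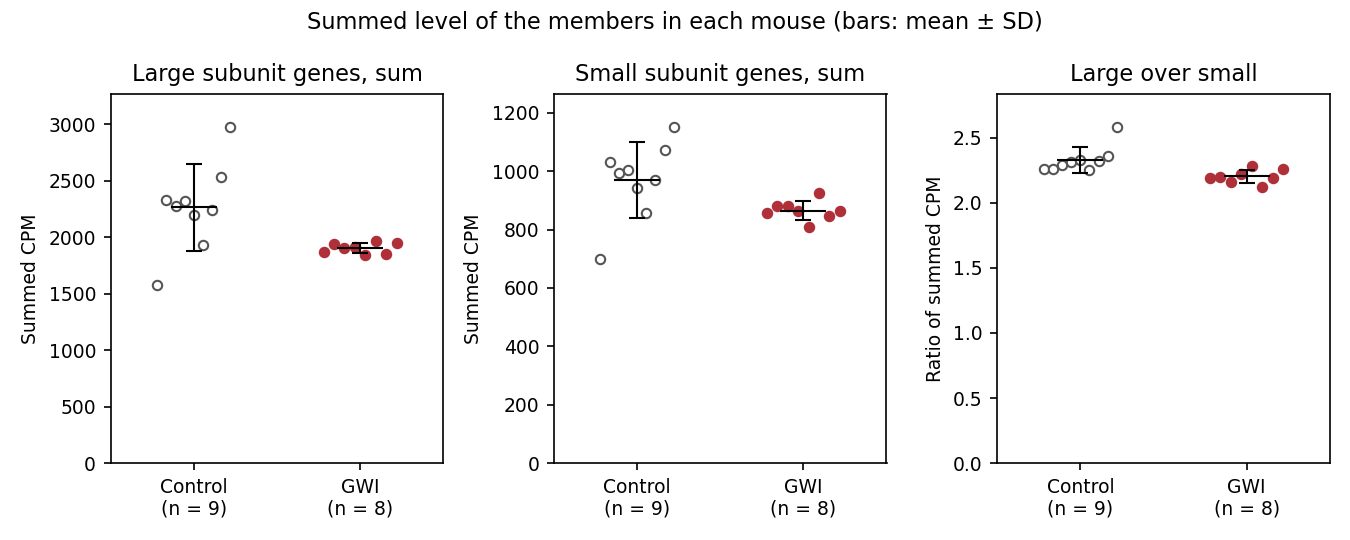
Summed CPM of the large subunit genes (left) and small subunit genes (middle), and the ratio of these sums (right), in each control (open) and GWI (filled) mouse, with the mean and SD as bars. GWI mice lie between 1841 and 1964 CPM for the large subunit, inside the control range of 1574 to 2974 CPM.

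The most abundant member per length of all exons was Mrpl12, with a mean over all mice of 107 CPM per kb. Per kb of coding transcript it had 124 CPM, next to Mrps21 with 129 CPM. Mrpl12 (ENSMUSG00000039640.7, chr11:120484613-120489065) encodes the protein of the flexible L7/L12 stalk, which recruits translation factors and also binds the mitochondrial RNA polymerase. Its level was 145.0 CPM in the lowest control mouse, 180.3 at the median and 228.5 in the highest, against 120.2, 145.2 and 160.8 CPM in GWI mice. Thus 7 control mice lay above every GWI mouse and 4 GWI mice below every control mouse, and the groups overlapped. The means were 180.8 ± 27.1 CPM (SD, n = 9) and 144.4 ± 13.7 CPM (SD, n = 8), a log2 fold change of -0.32 (SE 0.10, adjusted p = 0.0203). With GC content and length corrected by offsets the log2 fold change was -0.27 (adjusted p = 0.0582). Mrpl54, which lies near the base of the stalk (ENSMUSG00000034932.4, chr10:81264713-81266934), had 23.1, 32.1 and 37.9 CPM at the lowest, median and highest control and 19.5, 21.0 and 26.1 CPM in GWI mice. Its log2 fold change was -0.54 (SE 0.10, adjusted p = 0.00202). Of 5 members placed in the stalk or at its base, 3 were lower, or 60.0% against 13.5% of all genes tested. The third was Mrpl11. Mrpl53, also of this region, had 14 to 35 counts per mouse and a log2 fold change of 0.15 (SE 0.21). Its level is uncertain, since 88.0% of its exon bases also belong to Gm42688 on the same strand.

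In the central protuberance, the top of the large subunit that faces the small subunit, 4 of 8 members were lower. The count was 2 without GWI replicate 7. Over all genes tested 13.5% were lower, and 9.21% without that mouse. Mrpl48 (ENSMUSG00000030706.17, chr7:100545751-100608301) had the smallest p-value of all members. Its level was 42.0 CPM in the lowest control mouse, 54.3 at the median and 77.7 in the highest, against 34.7, 37.4 and 41.1 CPM in GWI mice. Every GWI mouse lay below every control mouse. Mrpl48 was the only member of the 77 for which this held, whereas it held for 0.523% of all genes tested, and the opposite order held for 0 members and 1.83% of all genes tested. The log2 fold change was -0.56 (SE 0.10, adjusted p = 0.00149). Exons of Rab6a on the opposite strand cover 8.68% of its exon bases. Mrpl27, the counterpart of a bacterial protein that reaches towards the peptidyl transferase centre (ENSMUSG00000024414.13, chr11:94653767-94660089), had 37.2, 49.7 and 98.3 CPM at the lowest, median and highest control and 32.0, 33.7 and 41.7 CPM in GWI mice. Of the GWI mice 7 lay below every control mouse, and the highest control value was that of Control replicate 9. The log2 fold change of Mrpl27 was -0.64 (SE 0.16, adjusted p = 0.00837), and -0.47 (adjusted p = 0.00381) without that mouse. Mrpl58, a peptidyl-tRNA hydrolase built into the subunit that also frees stalled ribosomes, had 47.6 ± 8.37 CPM (SD, n = 9) in controls and 37.7 ± 3.11 CPM (SD, n = 8) in GWI colons. Its log2 fold change was -0.34 (adjusted p = 0.0272), and the adjusted p-value was 0.0505 to 0.0591 when Control replicate 4 or GWI replicate 7 was left out. The fourth was Mrpl18, with an adjusted p-value of 0.0306, and 0.0523 to 0.0583 without Control replicate 8, GWI replicate 1 or GWI replicate 7.

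Around the tunnel through which the new peptide leaves, 6 of 6 members had a negative log2 fold change, as had 55.2% of all genes tested, and the median was -0.26. Of these 6 members 1 passed the test, or 16.7% against 13.5% of all genes. Without Control replicate 1, where 16.3% of all genes were lower, 3 passed. With a covariate for muscle against epithelium 5 of the 6 were lower, with a median of -0.52, and 16.4% of all genes were lower. The median was nearer to 0 without Control replicate 9, at -0.16, and with GC content and length corrected by offsets, at -0.12. The member called with all mice, Mrpl23 (ENSMUSG00000037772.13, chr7:142532686-142540747), had 20.6, 36.0 and 40.7 CPM at the lowest, median and highest control and 20.8, 23.6 and 27.8 CPM in GWI mice. Each control mouse but Control replicate 1 lay above every GWI mouse, and Control replicate 1 lay below all of them. For Mrpl23 the log2 fold change was -0.54 (SE 0.11, adjusted p = 0.00364). The same layout of mice was seen for Mrpl13, a protein with a bacterial counterpart (ENSMUSG00000022370.13, chr15:55534094-55557748). Mrpl13 had 31.3, 52.4 and 70.3 CPM at the lowest, median and highest control and 34.5, 37.6 and 39.4 CPM in GWI mice, with a log2 fold change of -0.48 (SE 0.11, adjusted p = 0.00603). Mrpl33 (ENSMUSG00000106918.3, chr5:31596935-31664384) had 45.2 ± 13.5 CPM (SD, n = 9) in controls and 30.6 ± 2.76 CPM (SD, n = 8) in GWI colons, and 8 control mice lay above every GWI mouse. Its log2 fold change was -0.56 (SE 0.14, adjusted p = 0.00882), and -0.42 (adjusted p = 0.00297) without Control replicate 9. Mrpl32, whose precursor is cut by a mitochondrial protease before assembly (ENSMUSG00000015672.4, chr13:14608184-14613165), had 13.5, 23.0 and 56.8 CPM at the lowest, median and highest control and 14.8, 16.6 and 20.3 CPM in GWI mice. Its log2 fold change of -0.61 (SE 0.21, adjusted p = 0.0367) had an adjusted p-value of 0.0515 to 0.0686 without Control replicate 7 or 8 or any GWI mouse but GWI replicate 2. The highest control value was that of Control replicate 9, and without it the log2 fold change of Mrpl32 was -0.37 (adjusted p = 0.0383).

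The other large subunit genes lower in GWI colons were Mrpl20, Mrpl30, Mrpl35, Mrpl41 and Mrpl57. Mrpl30 (adjusted p = 0.0469) was at 0.0521 to 0.0802 without Control replicate 2, 3, 7, 8 or 9 or any 1 of the 8 GWI mice. Mrpl35 (adjusted p = 0.0361) was at 0.0534 to 0.0656 without Control replicate 8 or GWI replicate 1, 3, 4, 5, 7 or 8, and Mrpl41 (adjusted p = 0.0346) at 0.0522 to 0.0672 without Control replicate 4 or 8 or GWI replicate 2, 3, 6 or 7. These genes, Mrpl11 and Mrpl18 were chosen for naming after their values were seen. The large subunit members with the largest p-values were Mrpl15, at 43.5 ± 7.28 CPM (SD, n = 9) in controls and 42.9 ± 2.48 CPM (SD, n = 8) in GWI colons, and Mrpl4, at 31.5 ± 7.17 and 32.4 ± 1.62 CPM. Their log2 fold changes were -0.02 and 0.04, and Mrpl15 was above 0 without Control replicate 7 (0.01) or 9 (0.03) and Mrpl4 below 0 without Control replicate 9 (-0.03). Mrpl44, which also takes part in assembly of the large subunit, had a log2 fold change of -0.12 (SE 0.12). Mrpl14 and Mrpl34, with 50.5 and 49.4 CPM per kb of exon among the highest of the large subunit, had log2 fold changes of -0.18 and -0.11 and did not pass the test. With GC and length corrected, both were above 0, at 0.01 and 0.09.

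Among small subunit genes, Mrps28 had the largest change of all 77 members. Mrps28 (ENSMUSG00000040269.5, chr3:8802146-8923918) encodes a protein of the small subunit. Its level was 14.5 CPM in the lowest control mouse, 28.2 at the median and 44.9 in the highest, against 15.4, 17.4 and 21.97 CPM in GWI mice. Each control mouse but Control replicate 1 lay above every GWI mouse. The log2 fold change was -0.70 (SE 0.15, adjusted p = 0.00493). In the head of the small subunit, the part that swivels during translocation, 2 of 8 members were lower, against 13.5% of all genes tested. The count was 6 without Control replicate 1, where 16.3% of all genes were lower, and 3 without Control replicate 9, where 15.8% were. It was 1 without Control replicate 2 or 8 or GWI replicate 1, 2, 3, 4, 6 or 7, where 9.21% to 14% were. Mrps14 (ENSMUSG00000058267.13, chr1:160195215-160202170) had 30.3, 52.4 and 94.1 CPM at the lowest, median and highest control and 35.5, 37.7 and 40.3 CPM in GWI mice. Again 8 control mice lay above every GWI mouse and Control replicate 1 below, and the log2 fold change was -0.51 (SE 0.15, adjusted p = 0.0189), and -0.36 (adjusted p = 0.0145) without Control replicate 9. Mrps24 (ENSMUSG00000020477.10), at 30.1 CPM per kb of exon, fell from 49.6 ± 12.3 CPM (SD, n = 9) to 38.1 ± 1.55 CPM (SD, n = 8), a log2 fold change of -0.38 (adjusted p = 0.0351). Its adjusted p-value was 0.0507 to 0.0627 without Control replicate 2 or 8 or without GWI replicate 1, 2, 3, 4, 6 or 7, and exons of Urgcp on the same strand cover 15.4% of its exon bases.

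In the body and platform, which hold the decoding centre, 1 of 8 members was lower, or 12.5%, which lies below the 13.5% of all genes tested. The count was 3 without Control replicate 1, where 16.3% of all genes were lower. It was 2 without Control replicate 6 (11.4% of all genes) or GWI replicate 5 (14.5%), and 2 with a covariate for muscle against epithelium (16.4%). With all mice the called member was Mrps16 (ENSMUSG00000049960.4, chr14:20389304-20393634), needed for small subunit assembly, at 18.5, 26.7 and 38.8 CPM at the lowest, median and highest control and 19.2, 20.9 and 23.7 CPM in GWI mice. Its log2 fold change was -0.39 (SE 0.12, adjusted p = 0.0244). Mrps12, the decoding centre protein whose bacterial counterpart is the target of streptomycin resistance mutations, had 27.9 ± 6.26 CPM (SD, n = 9) and 27.2 ± 1.98 CPM (SD, n = 8), a log2 fold change of -0.04. With GC and length corrected it was 0.11, and with a covariate for muscle against epithelium 0.23. Mrps21 and Mrps23, the highest of the small subunit at 70.9 and 42.6 CPM per kb of exon, had log2 fold changes of -0.24 (adjusted p = 0.0516) and -0.08. The adjusted p-value of Mrps21 was 0.0186 to 0.0438 without Control replicate 1, Control replicate 6 or GWI replicate 5. Mrps7 had the largest p-value of all members, with a log2 fold change of -0.01 (SE 0.08). Mrps25 was lower by a log2 fold change of -0.27 (adjusted p = 0.0283), but 69.8% of its exon bases lie opposite exons of Nr2c2, so that its count cannot be assigned if strand was not used in counting. Its adjusted p-value was 0.0504 to 0.0577 without Control replicate 3 or 4 or GWI replicate 1, 2, 3, 4 or 7. Mrps10, at 3.64 CPM per kb of exon, had a log2 fold change of -0.32 (adjusted p = 0.106, and 0.0309 without Control replicate 1). Its highest control value was 54.1 CPM in Control replicate 9, next 41.2 CPM in Control replicate 8.

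Of the members whose place differs from their symbol, Mrps30 had a log2 fold change of -0.23 (adjusted p = 0.144, and 0.00943 without Control replicate 1), Mrps18a -0.05 and Mrps36 -0.05. Mrps18b went the other way. It is a paralog of Mrps18a and Mrps18c, and the rule takes the first but not the last. Mrps18b (ENSMUSG00000024436.16, chr17:35910379-35916389) had 10.2, 17.4 and 19.6 CPM at the lowest, median and highest control and 12.1, 23.4 and 24.6 CPM in GWI mice. All GWI mice but GWI replicate 5, the lowest by far, lay above the control range. Its log2 fold change was 0.41 (SE 0.15, adjusted p = 0.0502). Without GWI replicate 5, Control replicate 4 or Control replicate 8 the adjusted p-value was 0.0113 to 0.046. An antisense gene, Gm16279, lies opposite 30.5% of its exon bases, and it cannot be told apart from Mrps18b if strand was not used.

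**Figure D3:**
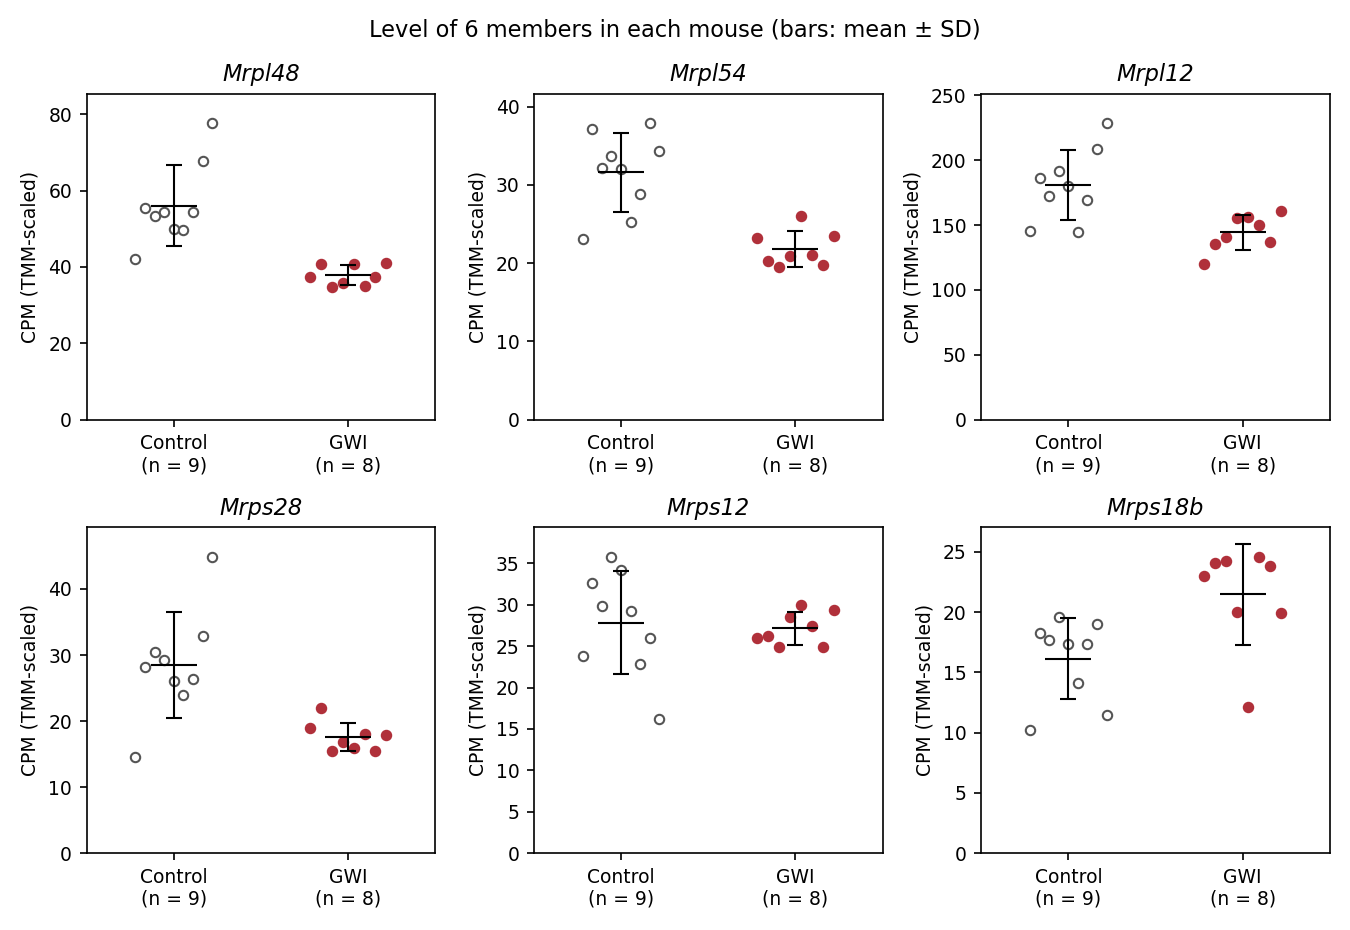
CPM of 6 members in each control (open) and GWI (filled) mouse, with the mean and SD as bars. For Mrpl48 every GWI mouse, at 34.7 to 41.1 CPM, lies below every control mouse, at 42.0 to 77.7 CPM. For Mrps18b 7 GWI mice lie above all controls.

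The lists of stalk, central protuberance, tunnel, head and body proteins were drawn up after the values were seen and leave out members whose place is less certain. On the opposite strand or the same strand, 32 members share exon bases with another gene.

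Members have short transcripts, so they were set beside other short coding genes. The median length of a member's coding transcripts was 1056 bases, against 2254 bases for other coding genes tested. Among genes with a median coding transcript of up to 1000 bases, 12 of 35 members were lower, or 34.3%, and 516 of 2264 other genes, or 22.8%, with medians of -0.23 and -0.16. In the class of 1000 to 2000 bases it was 3 of 24 members, or 12.5%, and 14.8% of 3673 other genes, with medians of -0.14 and -0.09. In the class of 2000 to 4000 bases it was 5 of 15 members and 9.97% of 5167 other genes, with medians of -0.33 and -0.01. Large subunit genes of up to 1000 bases had a median of -0.34, with 10 of 22 lower, and small subunit genes -0.08, with 2 of 13 lower.

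The picture changed with the measure of length. By the length of all exons of a gene, 250 other coding genes of up to 1000 bases had a median of -0.38 and 38.0% were lower, against a median of -0.31 and 4 of 9 members, or 44.4%. From 1000 to 2000 bases, 4 of 21 members were lower, with a median of -0.11, against 23.2% of 1403 other genes with a median of -0.21. In these classes the members' medians lay nearer to 0 than those of other short genes, while the share of lower members was above that of other genes in the shortest class and below it in the next. From 2000 to 4000 bases the median was -0.16 with 6 of 25 members lower, or 24.0%, against -0.07 and 13.8% of 4163 other genes, and above 4000 bases it was -0.28 with 7 of 22 lower against 10.5% of 7853 other genes. Leaving out cytosolic ribosomal protein genes gave 35.1% of 239 other genes in the shortest class and 21.7% of 1370 in the next, and leaving out OXPHOS genes as well gave 32.4% of 222 and 21.0% of 1341.

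GC content moved with the fold change too, in classes chosen after the data were seen. The 13 members under 45% GC had a median log2 fold change of -0.42, the 25 members of 45% to 50% had -0.26, the 23 of 50% to 55% had -0.17 and the 16 over 55% had -0.06. For other coding genes the medians of these classes were -0.21, -0.05, 0.03 and 0.04. Control replicate 9 differed from the other controls by a median of 0.97 on the log2 scale for members under 45% GC and by -0.44 for members over 55%, and other coding genes did so by 0.74 and -0.56. Control replicate 1 was lower than the other controls by a median of -0.76 to -0.39 in all these classes of members, where other coding genes lay at -0.23 to 0.23. With a trend on GC content and the length of all exons removed from each mouse, 13 members were lower and 3 higher (Mrps18b and, named after their values were seen, Mrpl10 and Mrps31). The median was -0.11 and 53 members were negative. All 13 were among the 21. The members' share of lower genes was 16.9% in that fit, where 12.1% of all genes were lower, so it lay nearer to that of all genes than without the correction. In the same fit 3 of 77 members were higher, and 2290 of all 14146 genes tested.

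**Figure D4:**
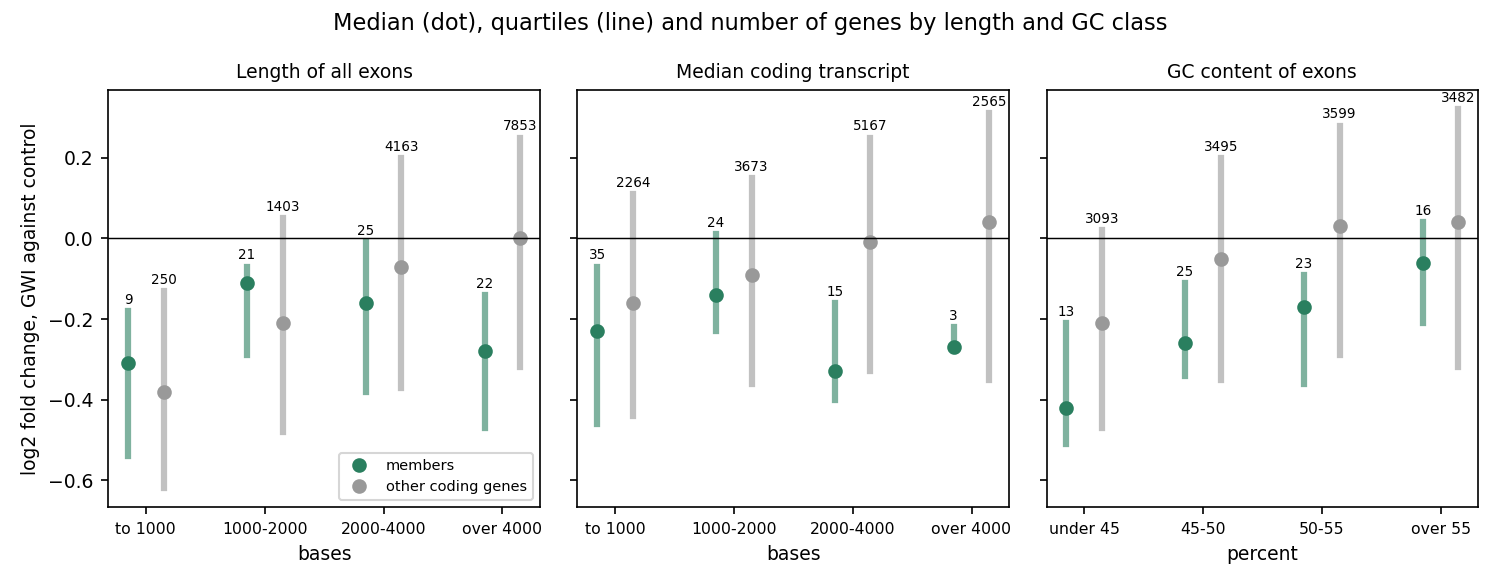
Median log2 fold change of GWI against control (dots) with quartiles (lines) for members and for other coding genes tested, by the length of all exons, by the median coding transcript and by GC content; the number of genes stands above each line. In the shortest class by all exons the medians are -0.31 for members and -0.38 for other genes, and by coding transcript -0.23 and -0.16.

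Mitoribosome proteins with other names were read as a list of their own. Of the 6 tested, 4 were lower and 0 higher by edgeR, with a median of -0.34. The share that was lower, 66.7%, stands against 13.5% of all genes tested. At an unadjusted p-value under 0.05 or by DESeq2 or limma-voom, 0 were higher. Mrps18c had 42.0 ± 16.4 CPM (SD, n = 9) in controls and 28.5 ± 2.71 CPM (SD, n = 8) in GWI colons, a log2 fold change of -0.56 (adjusted p = 0.0263, and 0.0504 without GWI replicate 3). Aurkaip1 had 86.8 ± 19.99 and 66.8 ± 3.53 CPM, a log2 fold change of -0.38 (adjusted p = 0.0219). With GC and length corrected neither passed the test, and 1 of the 6 did. Without GWI replicate 3 or 7, 2 of the 6 were lower, where 9.41% and 9.21% of all genes were.

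Factors that act on the mitoribosome were counted in the same way. Of 12 translation factors 1 was lower and 2 higher, with a median of 0.03. These shares of 8.33% and 16.7% stand against 13.5% and 13.4% of all genes tested. Without Control replicate 1 or 6 the count of lower translation factors was 2, and without GWI replicate 7 it was 0. With the covariate for muscle against epithelium 5 were lower and 1 higher, with a median of -0.08. Over all genes tested 9.21% to 16.3% were lower with 1 mouse left out, and 16.4% with that covariate. Tufm, the elongation factor that brings aminoacyl-tRNA, rose from 84.8 ± 22.5 CPM (SD, n = 9) to 122.8 ± 16.9 CPM (SD, n = 8), a log2 fold change of 0.53 (adjusted p = 0.018, and 0.0606 with scaling by library size alone). Gfm2, which helps to split the mitoribosome after termination, had a log2 fold change of 0.48 (adjusted p = 0.00497), while Mrrf, the recycling factor that works with it, had -0.37 (adjusted p = 0.0263, and 0.0581 without GWI replicate 7). A list of 20 genes that charge mitochondrial tRNAs held 17 aminoacyl-tRNA synthetases and 3 subunits of the amidotransferase that makes glutaminyl-tRNA (Gatb, Gatc and Qrsl1). Of these 20 genes 2 were higher and 0 lower, with 17 positive and a median of 0.10. The share that was higher, 10.0%, lay below the 13.4% of all genes tested. With the muscle covariate 0 were higher and 2 lower, 11 of the 20 were negative and the median was -0.02. The genes higher without it were the synthetase genes Vars2, with a log2 fold change of 0.49 (adjusted p = 0.00552), and Aars2, with 0.42 (adjusted p = 0.0139, and 0.0587 with scaling by library size alone). At an unadjusted p-value under 0.05, 3 of them were higher and 0 lower, and 0 were lower by DESeq2 or limma-voom. Of 27 assembly factors 2 were lower and 0 higher by edgeR, with a median of -0.02. The share that was lower, 7.41%, lay below the 13.5% of all genes tested. At an unadjusted p-value under 0.05, 2 of them were higher, by DESeq2 1 and by limma-voom 0. With the muscle covariate 7 were lower and 0 higher, with a median of -0.22. Without Control replicate 1, 5 were lower and 1 higher, without GWI replicate 3 or 7, 0 were lower, and without Control replicate 7, 8 or 9 or GWI replicate 1, 2, 4, 5, 6 or 8, 1 was lower. The assembly factors lower with all mice were Mrm3, which methylates the large ribosomal RNA, at -0.48 (adjusted p = 0.0243, and 0.0519 to 0.0538 without GWI replicate 3 or 7), and Mterf4 at -0.48 (adjusted p = 0.0401, and 0.0515 to 0.0665 without Control replicate 7, 8 or 9 or any 1 of the 8 GWI mice).

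Upstream and downstream of the mitoribosome, 13 genes of mitochondrial transcription and DNA upkeep had 2 lower and 3 higher, with a median of -0.22. These shares of 15.4% and 23.1% stand against 13.5% and 13.4% of all genes tested. With the muscle covariate 7 were lower and 2 higher, with a median of -0.67, and with GC and length corrected 1 was lower and 1 higher, with a median of -0.03. Without Control replicate 9 the median was -0.02. Lower genes numbered 4 without Control replicate 1 and 1 without Control replicate 7, 8 or 9 or GWI replicate 3, 4, 6, 7 or 8. Slirp, which binds mitochondrial mRNAs, had a log2 fold change of -0.61 (adjusted p = 0.00951), and Tefm, the elongation factor of the mitochondrial RNA polymerase, had -0.67 (adjusted p = 0.0346, and 0.0529 to 0.0614 without Control replicate 7, 8 or 9 or GWI replicate 2, 3, 4, 6, 7 or 8). The polymerase gene Polrmt was at 0.45 (adjusted p = 0.015, and 0.0595 with scaling by library size alone) and the DNA polymerase gene Polg at 0.32 (adjusted p = 0.00446). Of the 13 mRNAs encoded by mitochondrial DNA, which the mitoribosome translates, 7 were lower, or 53.8% against 13.5% of all genes tested. All 13 were negative, with a median of -0.72. Their summed level was 55830 to 243600 CPM in controls and 60900 to 99980 CPM in GWI mice. The highest control value was that of Control replicate 9, and Control replicate 8 was next at 144800 CPM. The most abundant, mt-Co1 at a control mean of 67500 CPM, had a log2 fold change of -0.38 (adjusted p = 0.298). Control means were only 6.61 to 44.1 CPM for mt-Nd3, mt-Nd4l, mt-Co2, mt-Co3, mt-Atp6 and mt-Atp8. Of these, mt-Nd3 and mt-Co3 (adjusted p = 0.0498) were among the called genes. Why these levels were so low was not tested. The median log2 fold change of the 13 mRNAs was -0.51 without Control replicate 9 and -0.38 with a block for the replicate number, which drops that mouse. The log2 fold change of mt-Nd2 was -0.72 (adjusted p = 0.0109) and that of mt-Nd6 was -0.72 (adjusted p = 0.00665). With the muscle covariate 13 of these mRNAs were lower, with a median of -1.15. With GC and length corrected 0 of the 13 were called, the median was -0.14, and mt-Nd2 was at -0.16 and mt-Nd6 at -0.14. Of 76 nuclear genes for OXPHOS subunits 37 were lower and 0 higher, or 48.7%, with a median of -0.32. With GC and length corrected 18 were lower and 1 higher, with a median of -0.15, with the muscle covariate 52 were lower and 0 higher, with a median of -0.53, and without GWI replicate 7, 24 were lower. Ndufa2 was at -0.64 (adjusted p = 0.00248) and Ndufa13 at -0.52 (adjusted p = 0.00591). Cytosolic ribosomal protein genes were lower in 75 of 85, or 88.2%, with a median of -0.66, led by Rps12 at -0.80 (adjusted p = 0.0012) and Rpl38 at -0.75 (adjusted p = 0.00134). Of cytosolic ribosomal protein genes 0 were higher, and with GC and length corrected 65 were lower and 1 higher, with a median of -0.50. At an unadjusted p-value under 0.05, 1 OXPHOS gene and 1 cytosolic ribosomal protein gene were higher. By the DESeq2 Wald test 47 OXPHOS genes were lower and 1 higher, and by limma-voom 31 and 0. For cytosolic ribosomal protein genes these counts were 79 and 0, and 67 and 0. Over all genes tested 17.3% were lower by DESeq2, 11.7% by limma-voom, 16.4% with the muscle covariate and 12.1% with GC and length corrected. With 1 mouse left out it was 9.21% to 16.3%.

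Markers of other cell types were read beside the members. All 10 smooth muscle markers had a negative log2 fold change and 7 were lower, with a median of -0.91, and 9 were lower by the DESeq2 Wald test and 3 by limma-voom. The count was 2 without Control replicate 6 or GWI replicate 3, 4, 6 or 7, 3 without Control replicate 1, 2, 3, 4 or 5 or GWI replicate 1 or 2, and 10 without GWI replicate 5. Their summed level was 3690 to 23920 CPM in controls, with a median of 11580 CPM, and 3658 to 11830 CPM in GWI mice, with a median of 5142 CPM. Myh11, the most abundant, was at -1.10 (adjusted p = 0.0407, and 0.0528 to 0.0896 without Control replicate 1, 2, 3, 4, 5 or 6 or GWI replicate 1, 2, 3, 4, 6 or 7). Of 12 colon epithelium markers 5 were higher and 0 lower (0 lower also at an unadjusted p-value under 0.05 and by DESeq2 or limma-voom), with a median of 0.39 and sums of 28880 to 46100 CPM in controls and 32890 to 50800 CPM in GWI mice. The count of higher markers was 8 without Control replicate 1 and 3 without Control replicate 3, 4, 6 or 8 or GWI replicate 2, 3, 4, 6 or 7. Car1, the most abundant of them, was at -0.06, and at 0.21 without Control replicate 9, 0.01 without GWI replicate 1 and 0.07 without GWI replicate 5. In controls the summed level of the members was 2272 CPM in Control replicate 1 and 2790 CPM in Control replicate 6, the mice with the most smooth muscle marker RNA (19940 and 23920 CPM). It was 3607 CPM in Control replicate 8 and 4125 CPM in Control replicate 9, the mice with the least (4702 and 3690 CPM). Control replicate 7, next lowest in these markers at 6790 CPM, had a member sum of 3211 CPM, below the control median. GWI mice had 2650 to 2889 CPM of members, with the lowest sum in GWI replicate 5, whose smooth muscle sum of 11830 CPM was the highest of that group. GWI replicate 8, second in these markers at 8419 CPM, had 2814 CPM of members, and GWI replicate 7, low at 4498 CPM, had 2696 CPM. With the difference of muscle and epithelium markers as a covariate, 41 members were lower and 0 higher, where 16.4% of all genes were lower, 30 of the large and 11 of the small subunit, with a median of -0.42. Of the 21 members called without the covariate, 20 were among the 41. The covariate itself differed between the groups, at -2.125 to 0.368 in controls and -2.691 to -1.248 in GWI mice. Its part in these counts therefore cannot be fully told apart from that of condition.

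All 6 adipocyte markers were positive and 1 was higher, with a median of 1.04, and the sum was 36.7 to 270.1 CPM in controls and 88.4 to 774.3 CPM in GWI mice, the highest being GWI replicate 7. Fabp4, the most abundant, was at 0.30 and at -0.24 without that mouse. Without GWI replicate 7 the median of the 6 was 0.62, 1 was negative and none was called. The call was also lost without Control replicate 2, 3, 6, 7 or 8 or GWI replicate 3, 4 or 8, and with the muscle covariate, where 1 was negative and the median was 1.01. It was lost as well with no filter on low counts and with the replicate block, with or without GC and length offsets. In the other direction, 2 of the 6 were higher without Control replicate 1, with a median of 1.29. With Control replicates 1 and 9 both left out 3 were higher, with a median of 1.47. All 6 enteric neuron markers were negative, with a median of -0.58, 0 called by edgeR, DESeq2 or limma-voom, 0 at an unadjusted p-value under 0.05, and sums of 47.2 to 352.7 CPM in controls and 63.5 to 238.7 CPM in GWI mice. With the muscle covariate all 6 were positive, with a median of 0.82, so the sign of this list depends on that covariate. By limma-voom 5 were negative and 1 positive, with a median of -0.34. Their most abundant gene, Uchl1, was at -0.63 (adjusted p = 0.273). Of 4 lymphocyte markers tested 0 were called by any of these tools and 0 at an unadjusted p-value under 0.05, with sums of 8.42 to 28.9 CPM in controls and 10.95 to 20.04 CPM in GWI mice, and Ptprc was at -0.21. Small intestine markers summed to 73.98 to 662.0 CPM in controls, the highest in Control replicate 7, and to 76.3 to 125.2 CPM in GWI mice, with 1 of 4 tested lower and 1 higher and Sis the most abundant at -0.69. The higher call was lost with scaling by library size alone, with no filter on low counts and without Control replicate 2, 3, 6, 7 or 8 or GWI replicate 2, 4, 5, 6 or 7. The lower call was lost by limma-voom and with the muscle covariate. Both calls were lost with the replicate block, with or without GC and length offsets. Pancreas acinar markers were near 0, with sums of 0 to 0.364 CPM, Cpb1 the most abundant, Cpa1 at 0 in all 17 mice and 0 of 7 tested. The part of these tissues in the members' levels was not tested beyond the covariate for muscle against epithelium, which cannot settle it because it differs between the groups.

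The promoters of the members were read for what they share beyond the symbol. RefSeq promoter windows of GRCm38.p6, from 250 bases before to 50 bases after the start, were matched by symbol for 68 of the 77 members, 18 of them lower in GWI colons. On both strands, the letters CCGGAAGT, a core bound by ETS factors, were found in 11 of the 68 members, or 16.2%, in 8.16% of 10866 other genes tested and in 4.31% of all genes in the set. GCGCATGC, of the factor NRF1, was found in 8 members, or 11.8%, against 5.52% and 3.05%. AAGATGGC, of the factor YY1, was found in 12 members, or 17.6%, against 4.78% and 3.19%. CCAAT was found in 27 members, or 39.7%, against 42.4% and 41.1%, and CACGTG in 4, or 5.88%, against 11.3% and 8.09%. Among the 18 lower members 4 held the ETS letters, 2 the NRF1 letters and 3 the YY1 letters, and among the 50 others 7, 6 and 9. A match is a description of the letters and not of binding.

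The 250 bases before the start are shown for lower members taken by the naming rule that have the ETS, NRF1 or YY1 letters there, on the strand of the gene, with each match in capitals. Mrpl27 (chr11:94653541-94653790, plus strand) has the ETS letters 55 bases before the start. Mrpl48 (chr7:100583131-100583380, minus strand), shown for its annotated start inside the gene, since its other starts lack these letters, has the ETS letters on the other strand at 35 bases. Mrpl33 (chr5:31613701-31613950, plus strand) has the NRF1 letters at 12 bases, and the ETS letters across its start, beyond what is shown. Mrpl32 (chr13:14613038-14613287, minus strand) has the YY1 letters on the other strand at 242 bases and 4 matches of the NRF1 letters, of which the first pair overlap. Mrpl18, outside that rule and not shown, has the ETS letters 240 bases before its start.
Mrpl27: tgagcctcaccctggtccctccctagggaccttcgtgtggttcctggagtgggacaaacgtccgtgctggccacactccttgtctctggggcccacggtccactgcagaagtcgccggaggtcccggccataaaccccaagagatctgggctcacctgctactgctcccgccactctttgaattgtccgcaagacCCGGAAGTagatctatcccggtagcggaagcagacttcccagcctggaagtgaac
Mrpl48: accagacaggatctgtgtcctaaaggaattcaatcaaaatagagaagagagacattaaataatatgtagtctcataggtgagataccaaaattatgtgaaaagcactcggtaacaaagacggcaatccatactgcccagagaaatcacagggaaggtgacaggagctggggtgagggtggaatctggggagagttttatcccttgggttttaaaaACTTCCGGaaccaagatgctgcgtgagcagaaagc
Mrpl33: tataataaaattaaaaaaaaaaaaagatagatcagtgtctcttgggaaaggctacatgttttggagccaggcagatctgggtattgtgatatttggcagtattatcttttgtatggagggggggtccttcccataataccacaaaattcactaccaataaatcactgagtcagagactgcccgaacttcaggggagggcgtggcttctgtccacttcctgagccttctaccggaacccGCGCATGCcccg
Mrpl32: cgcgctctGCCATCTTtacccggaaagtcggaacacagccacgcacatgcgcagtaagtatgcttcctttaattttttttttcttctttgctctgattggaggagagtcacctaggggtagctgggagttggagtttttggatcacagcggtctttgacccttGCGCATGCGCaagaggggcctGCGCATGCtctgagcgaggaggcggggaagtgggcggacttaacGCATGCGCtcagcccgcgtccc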

How the data were processed

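Raw counts per gene, deposited by the authors without normalization, were used for all 17 mice. Per the submitters' notes and the methods, reads were trimmed with Trimmomatic 0.36, mapped to GRCm38 with STAR 2.5.2b and counted with featureCounts. The annotation release and the strand setting are not given in the sources used here. In R 4.3.3, counts were filtered with filterByExpr, scaled by TMM, and fitted in edgeR 4.0.16 (glmQLFit with its robust option, then glmQLFTest) on condition alone, with Benjamini-Hochberg adjustment over 14146 genes. All 77 members passed the filter. CPM use TMM-scaled library sizes. Positions, lengths and GC content came from GENCODE M21, with values for 99.4% of tested genes. Wherever length was corrected by offsets, it was the length of all exons and not that of coding transcripts. The fit was tested on simulated data.

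Members and gene lists were chosen with earlier results of these data known. Genes named in each subunit were up to 6 called genes per direction by p-value, the 3 highest and 2 lowest by CPM per kb of exon, the 2 with the largest log2 fold change, the 2 with the largest p-value and 8 fixed members. In other lists they were the 2 leading called genes per direction by p-value, or the most abundant marker. Alternatives were DESeq2 1.42.0 (size factors and Wald test), library size alone, limma-voom (limma 3.58.1), no filter, at least 10 counts in every mouse, a covariate for muscle against epithelium, GC and length offsets (mgcv 1.9.3), a replicate block, each mouse left out and an adjusted p-value under 0.01.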

Additional observations from a re-analysis of the deposited data

Results flagged for a closer look

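In 64 groups of values for the named members and the subunit sums, a mouse was set apart where its gap to the next mouse took an unusual share of its group's range. About 1 in 20 groups meets this by chance. Control replicate 9 was far above the other controls for Mrpl27 (98.3 CPM, next 62.9 CPM), Mrpl32 (56.8, next 29.0), Mrpl33 (78.6, next 48.7), Mrps14 (94.1, next 59.8) and Mrpl53 (2.23, next 1.40). It also had the highest ratio of the large to the small subunit sum (2.58, next 2.36). Control replicate 1 was far below the other controls for Mrps30 (12.4 CPM, next 20.5 CPM). Among GWI mice, GWI replicate 5 was low for Mrps18b (12.1 CPM, next 19.9 CPM) and GWI replicate 8 was high for Mrpl27 (41.7 CPM, next 36.2 CPM). The cause was not tested.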

How the results depend on the processing

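With DESeq2's size factors, library size alone, no filter, at least 10 counts in every mouse, the DESeq2 Wald test and limma-voom, the count of lower members stayed within 16 to 25. Over all genes tested 8.49% to 17.3% were lower in these fits. Mrpl23, Mrpl27, Mrpl33 and Mrpl48 were called under all 11 alternatives that did not leave out a single mouse (replicate block included, stricter threshold aside), and 13 members whichever of the 17 mice was left out.

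Lower members, then large and small subunit genes, were 41, 30 and 11 with the muscle covariate, 13, 10 and 3 with GC and length offsets, 43, 29 and 14 without Control replicates 1 and 9 (chosen after seeing the data), and 7, 6 and 1 at an adjusted p-value under 0.01, where 528 of all genes were lower. Higher members numbered 1 by the DESeq2 Wald test and 3 with the offsets. The median was -0.42 with the covariate. Leaving out a mouse gave 13 to 37 lower and 0 to 1 higher members, 10 to 24 large and 3 to 13 small subunit genes, 1309 to 2295 lower genes in all and medians of -0.24 to -0.16. The cause was not tested.

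The replicate numbers do not pair the mice: correlations of same-numbered mice were -0.506 to 0.115, and no GWI mouse correlated best with its own number. With the replicate block, which drops Control replicate 9, 9 members were lower (8 large, 1 small) and 814 of all genes. With offsets and the replicate block it was 4 members (4 large, 0 small), 1 higher member and 694 genes. OXPHOS genes lower were 21 with the replicate block and 2 with offsets as well, and cytosolic ribosomal protein genes 36 and 18.

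Some named genes changed sign, none of them past the threshold where it did. With GC and length offsets Mrpl14 was at 0.01, Mrpl34 at 0.09, Mrps12 at 0.11, Mrps23 at 0.03, Mrps36 at 0.20 and Car1 at 0.36. With offsets and replicate block they were at 0.02, 0.05, 0.06, 0.06, 0.17 and 0.50, Mrpl15 at 0.05 and Mrps7 at 0.00. With the replicate block alone Mrpl15 was at 0.05, Mrpl4 at -0.01 and Car1 at 0.27. With the muscle covariate Mrps12 was at 0.23, Mrps7 at 0.03, Mrpl53 at -0.02, Fabp4 at -0.19, Uchl1 at 0.93 and Myh11, which was called in the fit with all mice, at 0.53. Myh11 is among the genes from which that covariate was made, so its value there is no test of its change. By limma-voom Car1 was at 0.06. Without Control replicates 1 and 9 Mrpl4 was at -0.09, Car1 at 0.04 and Ptprc at 0.06. Leaving out each mouse in turn gave -0.06 to 0.03 for Mrpl15, -0.03 to 0.08 for Mrpl4, -0.10 to 0.01 for Mrps12, -0.05 to 0.02 for Mrps7, -0.12 to 0.00 for Mrps36, -0.24 to 0.55 for Fabp4 and -0.19 to 0.21 for Car1. The cause was not tested. Depth limits Mrpl53 most, at 14 to 35 counts.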
